A study of Mus musculus with 15 samples.

Results

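The genes described here are 9 enzymes and chaperones that modify collagen after it is made or join its molecules to each other: Lox, Loxl1, Loxl2, Plod1, Plod2, Plod3, P4ha1, P4ha2 and Serpinh1. They were chosen by name for their known function, and they are 9 of the 12386 named genes listed in the libraries of every group. All 9 passed the filter on low values, at least 0.5 FPKM in at least 5 libraries. FPKM counts fragments relative to the length of the transcript and the depth of the library, so levels can be set side by side between genes of different length.

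The study sequenced rRNA-depleted total RNA from the hearts of C57BL/6 males, 15 libraries in 3 groups of 5 mice. The groups were Control, AngII, given angiotensin II, and AngII+QDG, given angiotensin II together with an agent labelled QDG. All mice were of one strain and sex, and no genetic change is named for any group. The dose, the route and the duration of either agent, the age of the mice, the treatment of the Control mice and what QDG stands for are not stated in the labels used here. Whole heart tissue was used, so fewer cells of a type and less RNA per cell cannot be told apart. Summed FPKM of 6 cardiomyocyte markers (Myh6, Tnnt2, Actc1, Ryr2, Myl2 and Tnni3) was between 16295 and 30098 in every library, far above the summed markers of any other cell type read here.

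Collagen chains are modified in the endoplasmic reticulum while they fold. Prolyl 4-hydroxylases add the hydroxyl groups that keep the triple helix stable, lysyl hydroxylases modify lysines that later form crosslinks or carry sugars, and the chaperone HSP47, encoded by Serpinh1, binds the folded procollagen on its way out. Outside the cell, lysyl oxidases convert lysines and hydroxylysines of collagen and elastin into reactive aldehydes, which join neighbouring molecules. In the heart these proteins are made mainly by fibroblasts and other stromal cells, and the amount and kind of crosslinks bear on the stiffness of scar and interstitial matrix.

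Depth, read from the steps between the values, was 51.6 to 78.3 per library, in units of 1000000 fragments. The balance of short protein-coding transcripts (under 1000 nt) against long ones (at least 3000 nt), as a difference of mean log2(FPKM + 1), averaged 1.20 ± 0.18 (SD, n = 5) for Control, 0.84 ± 0.07 for AngII and 0.81 ± 0.10 for AngII+QDG, and the Control libraries, at 0.98 to 1.40, lay above all 10 others. Control 3 and Control 5 were the most tilted, at 1.40 and 1.36. Over all tested genes the median log2 difference between AngII and Control was 0.20, and of 12262 genes 1454 were called higher and 181 lower, against 406 higher and 413 lower after quantile normalization and 456 higher and 866 lower after scaling each library to its median. Between AngII+QDG and Control the split was 1971 higher and 406 lower, against 984 and 999 after quantile normalization and 992 and 1695 after median scaling. Each member below was therefore read also against this shift of all genes, and with the balance as a covariate. The AngII+QDG files list a transcript set of their own (31734 transcripts against 31685 in the other groups, 29996 shared), which touches the sums of Lox, P4ha2 and Serpinh1, and summing only shared transcripts left 2, 0 and 1 members called in the 3 comparisons, as in the deposited sets. P-values set a difference between groups against the spread between libraries within the groups.

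Coding exons tell apart the listed transcripts of P4ha1 and P4ha2 and mark the form of Plod2 that the files hold, and they are printed because the transcript values of these enzymes rest on them. P4ha1 (chromosome 10, 59323296 to 59373304, + strand) is listed as 2 coding transcripts, which use one or the other of a pair of alternative exons of 71 nt. P4ha1-201 carries the exon at chr10:59354340-59354410 and P4ha1-203 the exon at chr10:59355350-59355420. The P4ha2 gene (chromosome 11, 54100095 to 54131665, + strand) has a like pair, an exon of 66 nt in P4ha2-201 at chr11:54126346-54126411 and one of 60 nt in P4ha2-202 at chr11:54126238-54126297. Each exon below is printed 5′ to 3′ from the GENCODE M21 transcripts on GRCm38, and capitals mark bases that differ from the other exon of the same gene.
P4ha1-201 exon 9: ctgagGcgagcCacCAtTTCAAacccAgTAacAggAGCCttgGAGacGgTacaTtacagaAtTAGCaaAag
P4ha1-203 exon 9: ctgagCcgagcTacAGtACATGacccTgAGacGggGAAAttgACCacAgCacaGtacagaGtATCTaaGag
P4ha2-201 exon 13: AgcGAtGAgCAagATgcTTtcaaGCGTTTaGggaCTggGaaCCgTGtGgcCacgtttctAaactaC
P4ha2-202 exon 13: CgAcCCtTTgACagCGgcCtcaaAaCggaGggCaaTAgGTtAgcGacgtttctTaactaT
The P4ha1 exons were identical at 42 of 71 positions (59.2%), and the P4ha2 exons at 37 of 67 columns of their alignment (55.2%). Both pairs lie within the coding sequence, so each enzyme is listed in alternative forms.

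Plod2 (chromosome 9, 92542223 to 92608428, + strand) is listed by a single transcript, Plod2-203, which contains exon 14, of 63 nt, at chr9:92601985-92602047. This exon distinguishes the long form of lysyl hydroxylase 2, known as the form that acts on lysines at the ends of the collagen molecule, from a short form without it. Of the 5 annotated Plod2 transcripts only this 1 is listed, so the Plod2 values cannot tell the long form from the short form.
Plod2-203 exon 14: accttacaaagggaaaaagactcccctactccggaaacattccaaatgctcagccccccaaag
The exon is printed in lower case because no other exon is set against it.

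Levels differed widely between members. Serpinh1 had the highest mean in every group, above 92.7% of all tested genes over the 15 libraries, and Plod1 came next, above 88.5%. Loxl1, P4ha2, P4ha1 and Plod3 formed a middle tier between 8.11 and 16.3 FPKM in their group means, and neighbours in that tier overlapped in every group. Plod2 averaged 2.67 to 4.57 FPKM, Loxl2 1.08 to 3.83 FPKM and Lox 0.644 to 1.41 FPKM. Plod1 was above the next member in all 5 libraries of each group without overlap, while the Serpinh1 and Plod1 ranges overlapped in Control alone. The order of the means was the same in Control and AngII, and in AngII+QDG only P4ha2 and Loxl1, whose ranges overlapped, changed places.

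**Figure D1:**
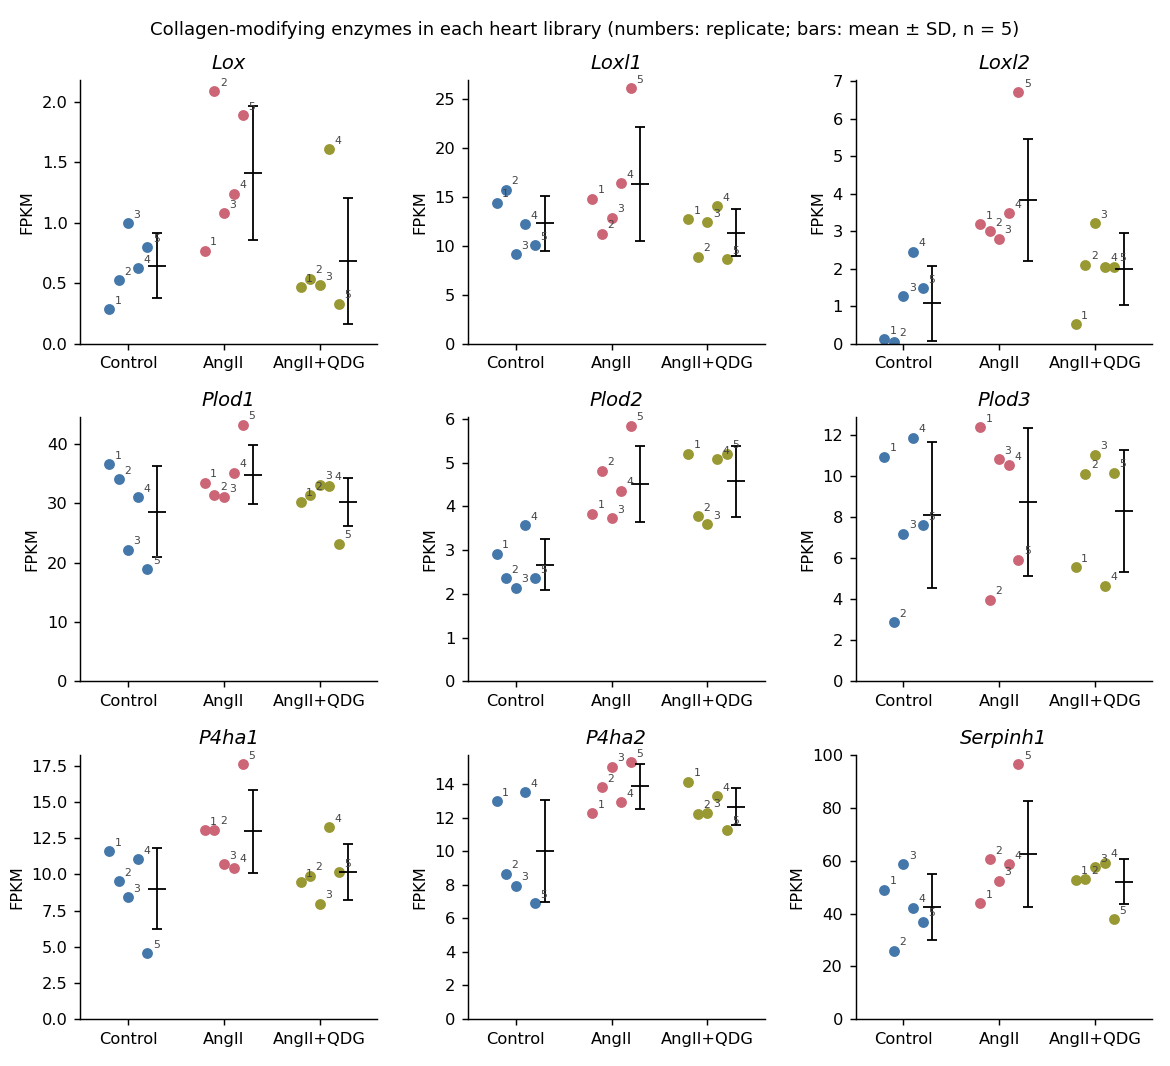
FPKM (vertical axis, from 0) of each of the 9 genes in each library, with points numbered by replicate and bars for the mean ± SD of 5 libraries in the Control, AngII and AngII+QDG groups. All AngII libraries lie above all Control libraries for Loxl2 and Plod2, and AngII replicate 5 is the highest of the 15 libraries for 7 of the 9 genes.

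The comparison of AngII with Control asks what angiotensin II did to these transcripts. Of the 9, Loxl2 and Plod2 rose, by 1.31 ± 0.34 and 0.59 ± 0.15 (SE) on the log2(FPKM + 1) scale, and no member fell. All 9 members had a higher mean in AngII, but the other 7 did not pass the test. Of all tested genes 13.3% were called in this comparison, against 2 of the 9 members, and these 2 were also the members whose AngII libraries all lay above all Control libraries, as did 10.1% of all genes. At an unadjusted p below 0.05 there were 6 members, and 31.5% of all genes. The median difference of the members was 0.51, beside 0.20 over all genes.

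Among the lysyl oxidases, Loxl2, a secreted member of the family that also acts on type IV collagen of basement membranes, showed the largest difference. Its gene lies on chromosome 14 from 69609068 to 69695834, + strand. Control replicates 1 to 5 held 0.123, 0.0567, 1.27, 2.45 and 1.49 FPKM, and the AngII replicates 3.19, 2.998, 2.80, 3.47 and 6.70 FPKM. The groups did not overlap, although Control itself ranged widely, from 20 to 950 fragments per library. The mean was 1.08 ± 1.01 FPKM (SD, n = 5) in Control and 3.83 ± 1.62 in AngII. The adjusted p was 0.0287 (limma with Benjamini-Hochberg adjustment over 12262 genes), with a 95% interval of 1.49 to 4.14 for the fold of FPKM + 1. AngII replicate 5 stood far above the other AngII libraries, and without it their mean was 3.12 ± 0.286 (n = 4), still above every Control library. The call was lost without AngII replicate 2, 4 or 5 or Control replicate 1 or 2, with a highest adjusted p of 0.0688.

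Lox, the enzyme that gave the family its name and a main crosslinker of fibrillar collagen and elastin, was the least abundant member. It lies on chromosome 18 from 52516067 to 52529867, - strand. Control replicates held 0.286, 0.523, 0.993, 0.623 and 0.796 FPKM and AngII replicates 0.767, 2.08, 1.08, 1.24 and 1.89 FPKM, so 4 of the 5 AngII libraries were above the highest Control library. The difference was 0.54 ± 0.20 (SE), with an adjusted p of 0.0815 (limma), and was not called, although it passed when AngII+QDG replicate 4 was left out (the same difference with an SE of 0.16, adjusted p = 0.0469, limma). Part of it came from Lox-201, a transcript listed at 0 in every Control library, at 1.55 FPKM in AngII replicate 2 and 0.824 in AngII replicate 4, at 0 in the other AngII libraries and not listed for AngII+QDG. Over Lox-202 alone, the transcript listed for all groups, the means were 0.644 ± 0.268, 0.937 ± 0.587 and 0.685 ± 0.520 FPKM in Control, AngII and AngII+QDG, and the AngII difference was 0.20, with an adjusted p of 0.528 (limma). In the 2 AngII libraries that held Lox-201, replicates 2 and 4, Lox-202 was at 0.539 and 0.416 FPKM. Over both transcripts the difference was 0.44 without AngII replicate 2 and 0.56 without AngII replicate 4. How fragments were divided between the transcripts was not tested.

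Loxl1, which is tied to elastic fibres, was far more abundant than its relatives (chromosome 9, 58287738 to 58313186, - strand). Control replicates held 14.4, 15.8, 9.13, 12.2 and 10.1 FPKM and AngII replicates 14.9, 11.2, 12.9, 16.4 and 26.1 FPKM. The groups overlapped, and only AngII replicates 4 and 5 exceeded the highest Control library. The difference was 0.35 ± 0.21 (SE), with an adjusted p of 0.278 (limma).

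Of the lysyl hydroxylases, Plod2 rose. Control replicates held 2.92, 2.35, 2.14, 3.57 and 2.36 FPKM and AngII replicates 3.83, 4.82, 3.73, 4.36 and 5.85 FPKM. The groups did not overlap, but the gap between the highest Control and the lowest AngII library was narrow. The mean went from 2.67 ± 0.579 to 4.52 ± 0.864 FPKM (SD, n = 5), with an adjusted p of 0.0265 (limma). For the fold of FPKM + 1 the 95% interval was 1.21 to 1.88. The call was lost without AngII replicate 2, 4 or 5 or Control replicate 3, with a highest adjusted p of 0.0649.

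Plod1, which hydroxylates lysines within the triple helix, was the most abundant hydroxylase (chromosome 4, 147909753 to 147936767, - strand). Control replicates held 36.6, 34.1, 22.2, 31.0 and 18.9 FPKM, and AngII replicates 33.5, 31.4, 31.0, 35.2 and 43.3 FPKM. Only AngII replicate 5 exceeded the highest Control library, and the lowest values were those of Control replicates 3 and 5. The difference of 0.31 ± 0.17 (SE) had an adjusted p of 0.230 (limma) and became -0.013 after median scaling.

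Plod3, which also attaches sugars to hydroxylysine, varied within groups more than between them (chromosome 5, 136987019 to 136996648, + strand). Control replicates held 11.0, 2.89, 7.20, 11.9 and 7.61 FPKM and AngII replicates 12.4, 3.97, 10.8, 10.6 and 5.93 FPKM. Both groups had libraries near the bottom and the top of the range. The difference was 0.12 ± 0.35 (SE), with an adjusted p of 0.850 (limma), and it was negative under both scalings, at -0.12 and -0.18.

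The catalytic alpha subunits of prolyl 4-hydroxylase were close to each other in level. P4ha1 in Control was 11.6, 9.52, 8.42, 11.0 and 4.53 FPKM, and in AngII 13.1, 13.1, 10.7, 10.5 and 17.6 FPKM. P4ha2 in Control was 13.0, 8.67, 7.95, 13.5 and 6.90 FPKM, and in AngII 12.3, 13.8, 15.04, 12.9 and 15.3 FPKM. For each gene 3 AngII libraries lay above the highest Control library, and all 5 lay above the Control median. The differences were 0.51 ± 0.21 for P4ha1 and 0.47 ± 0.16 (SE) for P4ha2, with adjusted p-values of 0.113 and 0.0614 (limma), so neither was called. P4ha2 passed the test without Control replicate 1 (adjusted p = 0.0379, limma) or 4 (adjusted p = 0.0177, limma), the highest P4ha2 values of that group. Its sum holds coding transcripts, at 7.67 ± 2.33 FPKM (SD) in Control and 9.89 ± 1.58 in AngII. It also holds retained-intron transcripts, at 2.34 ± 0.996 and 3.98 ± 0.772 FPKM, so part of the difference was not from coding transcripts.

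Serpinh1 lies on chromosome 7 from 99345376 to 99353239, - strand. Its Control values were 49.0, 25.8, 58.6, 42.1 and 36.8 FPKM and its AngII values 44.0, 60.6, 52.5, 58.6 and 96.7 FPKM. The groups overlapped, with 3 AngII libraries above the highest Control library and AngII replicate 5 well above the rest. The difference was 0.55 ± 0.22 (SE), with an adjusted p of 0.112 (limma).

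**Figure D2:**
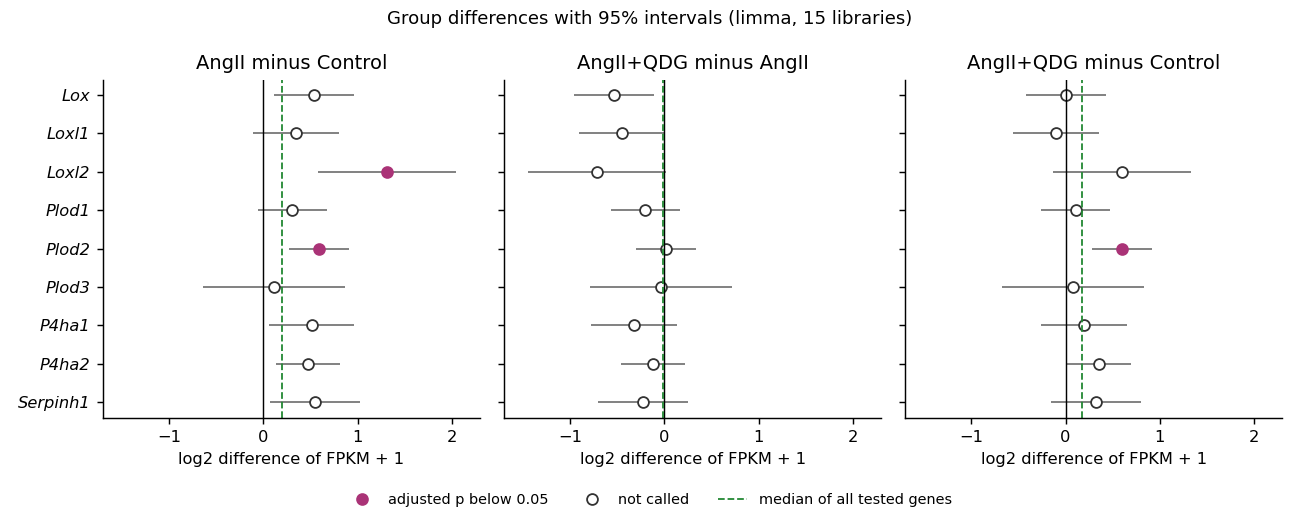
Differences between groups in log2(FPKM + 1) (horizontal axis) for each gene in the 3 comparisons, with 95% intervals from limma over 15 libraries; filled points have an adjusted p below 0.05 and dashed lines are the median of all tested genes. Loxl2 and Plod2 are filled for AngII against Control, none for AngII+QDG against AngII, and Plod2 alone for AngII+QDG against Control.

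Both AngII calls moved with the scaling and with the libraries that stood apart. After quantile normalization the Loxl2 difference was 1.01 (adjusted p = 0.0854, limma) and that of Plod2 0.32 (adjusted p = 0.131, limma). Without Control replicates 3 and 5 they were 1.54 (adjusted p = 0.0684, limma) and 0.48 (adjusted p = 0.123, limma). With that balance added to the model as a covariate, Loxl2 was 1.69 ± 0.57 (SE) and Plod2 0.15 ± 0.19, and under this fit no gene of the 12262 was called in the comparison, against 649 genes and 2 members at an unadjusted p below 0.05. In that fit the Loxl2 difference was as large, with a wider error, and that of Plod2 was smaller. All Control libraries lay above all others in balance, so this fit cannot tell the balance and the treatment apart for either gene. A test by limma voom on the fragments recovered from the values called the same number of members, 2 of 9, with 6 at an unadjusted p below 0.05. Under the deposited values, quantile normalization, median scaling and without Control replicates 3 and 5, 8 of the 9 members were above the median of all genes, which was 0.20, -0.014, -0.025 and 0.077 in that order. With the balance as a covariate that median was -0.0095, and 5 of the 9 members had a positive difference. Loxl1, Plod1, P4ha1 and P4ha2 lay below the median there.

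**Figure D3:**
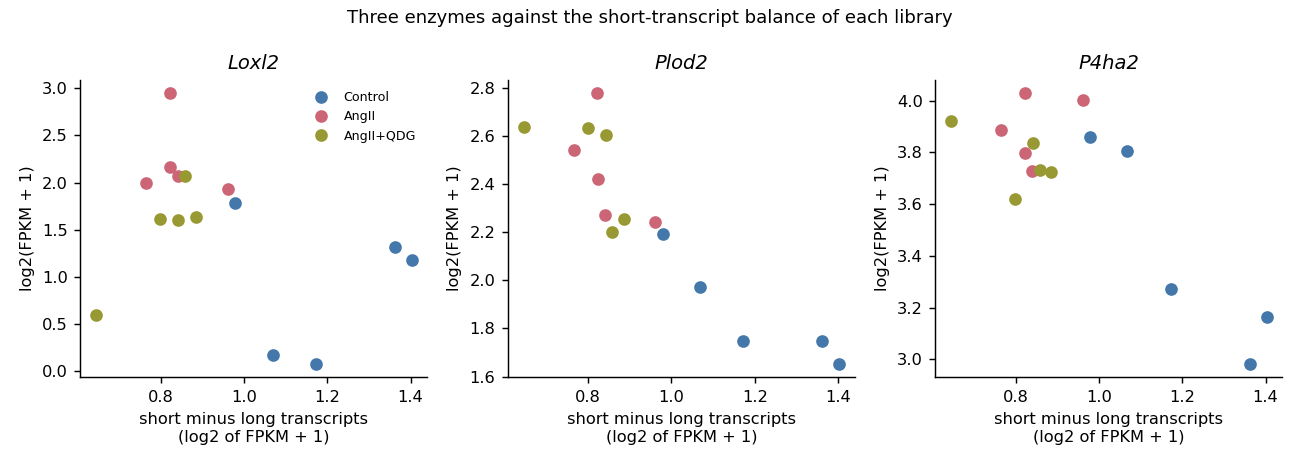
Loxl2, Plod2 and P4ha2 in log2(FPKM + 1) (vertical axes, not from 0) against the short-minus-long transcript balance of each library (horizontal axis, log2), with points coloured by group. Control libraries lie to the right of all others, at 0.98 to 1.40, and within them Plod2 is lowest where the balance is highest, while Loxl2 is lowest in Control replicates 1 and 2.

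Activated stromal cells are a known source of these transcripts, and their markers were read beside them. Summed FPKM of 8 fibroblast markers was 671 ± 113 for Control (479 to 750), 729 ± 131 for AngII (643 to 961) and 767 ± 107 for AngII+QDG (674 to 941). The 5 activated-fibroblast markers listed (Postn, Acta2, Fap, Meox1 and Comp, with Cthrc1 and Tnc not listed) summed to 61.9 ± 18.6, 97.2 ± 26.9 and 79.0 ± 15.5 FPKM. Most of each sum was Acta2, at 52.5, 78.3 and 64.3 FPKM, which was not called (adjusted p = 0.0797 in AngII against Control, limma). Comp alone among them had a lower mean in AngII than in Control, 1.08 against 1.87 FPKM. Ddr2 and Mfap5 of the 8 fibroblast markers and Postn of the 5 were called higher in AngII than in Control. Between AngII+QDG and Control the fibroblast markers Pdgfra, a growth factor receptor, at 0.72 ± 0.16 (SE, adjusted p = 0.0089, limma), and Lum were called higher. Of 6 cardiomyocyte markers, Ryr2, the calcium release channel, was called higher in AngII than in Control, at 1.00 ± 0.24 (SE, adjusted p = 0.0222, limma). Sums of 4 endothelial markers, 78.9 ± 23.7, 117 ± 21.7 and 106 ± 13.4 FPKM, and of 4 mural cell markers, 103 ± 26.5, 152 ± 27.8 and 137 ± 25.2 FPKM, also had higher means in the AngII groups, with Rgs5, a pericyte gene, called in AngII against Control (0.60 ± 0.18, SE) and the endothelial receptors Kdr and Tek in AngII+QDG against Control, while 4 macrophage markers summed to 84.0 ± 19.2, 73.3 ± 20.6 and 69.9 ± 9.48 FPKM. The 3 epicardial markers were near 0 (2.44, 2.49 and 3.59 FPKM in all). Wt1 was at 0 in every Control library and in at least 1 library of each other group. Its means were 0.646 in AngII and 0.531 FPKM in AngII+QDG, not called against Control (adjusted p = 0.0614 and 0.107, limma). None of the markers named here was called after leaving out Control replicates 3 and 5. The part of these cell types in the member differences was not tested.

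The comparison of AngII+QDG with AngII asks whether the added agent changed the response. No member was called, with adjusted p-values of 0.906 to 0.998 (limma), and across all genes 0% were called. By limma 1 member, Lox, was under 0.05 before adjustment, beside 4.72% of all genes. When only shared transcripts were summed, 0 members were under 0.05 before adjustment. Limma voom on recovered fragments called 0 members and had 2 under 0.05 before adjustment. The AngII+QDG mean was below the AngII mean for 8 of 9 members, with a median difference of -0.22 beside -0.017 over all genes. For 7 of the 9 it lay between the Control and AngII means, the exceptions being Loxl1 and Plod2.

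The lysyl oxidases had the lowest differences in this comparison when all listed transcripts were summed. Lox in AngII+QDG was 0.466, 0.538, 0.485, 1.60 and 0.330 FPKM, so 4 libraries lay below every AngII library and replicate 4 lay among them. The difference was -0.53 ± 0.20 (SE), with an adjusted p of 0.906 (limma), and over Lox-202 alone it was -0.20. The AngII sums include Lox-201, which is not listed for AngII+QDG. Over Lox-202 alone AngII was 0.416 to 1.89 FPKM and AngII+QDG 0.330 to 1.60 FPKM. There only AngII+QDG replicate 5 lay below every AngII library. Loxl2 was 0.517, 2.10, 3.21, 2.05 and 2.06 FPKM, below every AngII library except in replicate 3, with a difference of -0.71 ± 0.34 (SE) and an adjusted p of 0.998 (limma). Loxl1 was 12.7, 8.90, 12.5, 14.1 and 8.67 FPKM, overlapping AngII, with a difference of -0.45 ± 0.21 (SE) and an adjusted p of 0.998 (limma). The 95% interval of the fold of FPKM + 1 was 0.366 to 1.01 for Loxl2 and 0.533 to 1.00 for Loxl1. For the Lox sums, which hold Lox-201 in AngII alone, it was 0.517 to 0.926.

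Plod2 had no such difference in its mean. Its AngII+QDG values were 5.21, 3.77, 3.59, 5.08 and 5.20 FPKM, spread over the same range as AngII. The difference from AngII was 0.014 ± 0.15 (SE), and the 95% interval of the fold of FPKM + 1 was 0.810 to 1.26. The 2 remaining hydroxylases of lysine had wide or overlapping values. Plod1 was 30.3, 31.4, 33.2, 33.02 and 23.2 FPKM (difference -0.20 ± 0.17), and Plod3 was 5.57, 10.1, 11.1, 4.67 and 10.2 FPKM (difference -0.035 ± 0.35).

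Prolyl 4-hydroxylase subunits and the chaperone were likewise not called. P4ha1 was 9.48, 9.91, 7.98, 13.3 and 10.1 FPKM, with 4 libraries under the lowest AngII value, and its difference was -0.32 ± 0.21 (SE). P4ha2 was 14.2, 12.2, 12.3, 13.3 and 11.3 FPKM, with a difference of -0.12 ± 0.16. These sums include transcripts not listed for AngII. Over P4ha2 transcripts listed for all groups, coding sums were 9.89 ± 1.58 FPKM (SD) in AngII and 8.17 ± 1.37 in AngII+QDG. Retained-intron sums were 3.98 ± 0.772 and 3.33 ± 0.560 FPKM. Serpinh1 was 52.9, 52.9, 57.6, 59.2 and 37.8 FPKM, within or below the AngII range, with a difference of -0.22 ± 0.22.

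AngII+QDG was also compared with Control, and the comparisons share libraries, so their values are set side by side and not correlated. Plod2 rose, by 0.60 ± 0.15 (SE) on the log2(FPKM + 1) scale, with an adjusted p of 0.0138 (limma). It was the 1 member called, while 19.4% of all genes were called. All 5 AngII+QDG libraries were above all 5 Control libraries, as for 12.8% of all genes, but the lowest, 3.59 FPKM, was close to the highest Control value of 3.57 FPKM. The Plod2 call held when each library was left out in turn, with adjusted p-values of 0.00601 to 0.0393 (limma), and was lost under quantile normalization (0.33, adjusted p = 0.0890, limma), median scaling (0.34, adjusted p = 0.0725, limma), without Control replicates 3 and 5 (0.50, adjusted p = 0.0714, limma) and with the balance as a covariate (0.12, adjusted p = 0.885, limma). P4ha2 had a difference of 0.35 ± 0.16 (adjusted p = 0.137, limma, and 0.0378 without Control replicate 4) and Loxl2 one of 0.60 ± 0.34 (adjusted p = 0.237, limma). The AngII+QDG sum of P4ha2 includes P4ha2-208 and P4ha2-212 (means 0.511 and 0.638 FPKM), which are not listed for Control. Over P4ha2 transcripts listed for all groups, coding sums were 7.67 ± 2.33 FPKM (SD) in Control and 8.17 ± 1.37 in AngII+QDG. Retained-intron sums were 2.34 ± 0.996 and 3.33 ± 0.560 FPKM. Lox had a difference of 0.0056 and Loxl1 one of -0.11, and the median of the 9 members was 0.19 beside 0.18 over all genes.

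Ratios between isoenzymes were taken within each library, on FPKM + 1, so that those of members of low level still move in part with the scale of the library. For 7 pairs in 3 comparisons, 21 tests, none was called (exact two-sided permutation test over all arrangements of 5 against 5 libraries, smallest possible p = 0.00794). The lowest p was that of Loxl1 over Loxl2 between AngII and Control. The log2 ratio of (FPKM + 1) was 2.80 ± 0.99 in Control and 1.84 ± 0.14 in AngII, a difference of -0.97 (exact permutation p = 0.0159, adjusted p = 0.333). In AngII+QDG the same ratio was 2.10 ± 0.66. Plod1 over Plod2 had group means of 2.98 ± 0.34, 2.70 ± 0.14 and 2.49 ± 0.37 across Control, AngII and AngII+QDG, and did not pass the test (AngII+QDG against Control -0.49, exact permutation p = 0.0635, adjusted p = 0.444). The prolyl hydroxylase ratio, P4ha1 over P4ha2, was close to even in every group, at -0.15 ± 0.26, -0.11 ± 0.26 and -0.30 ± 0.25.

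**Figure D4:**
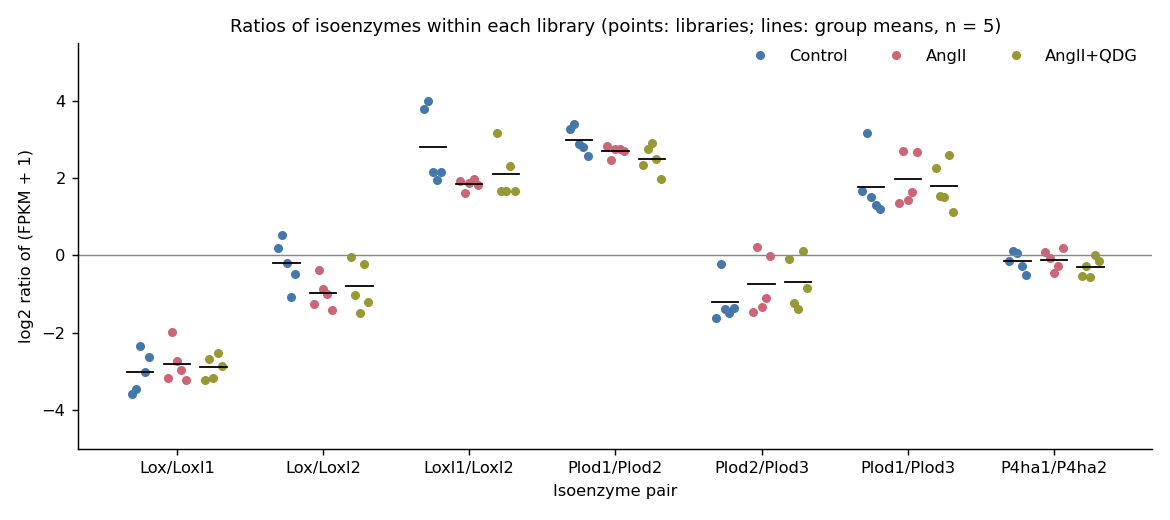
Log2 ratio of (FPKM + 1) between pairs of isoenzymes (vertical axis) within each library, with points coloured by group and lines at the group means of 5 libraries. The Control libraries are widely spread for Loxl1/Loxl2, where AngII is tight at 1.84 ± 0.14, and P4ha1/P4ha2 lies close to 0 in every group.

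Of the members' transcripts 20 were tested, with 0 called between AngII and Control (2.5% of 28475 transcripts were called), 0 between AngII+QDG and AngII (0.0105%) and 1 between AngII+QDG and Control (6.91%), by limma. At an unadjusted p below 0.05 there were 4, 0 and 3. The one called was Plod2-203, the only Plod2 transcript listed, at 0.60 ± 0.16 (SE) with an adjusted p of 0.0409. The P4ha2-204 transcript, which keeps an intron, had a difference of 0.74 ± 0.22 between AngII and Control with an adjusted p of 0.0767 (limma). The coding transcripts differed: P4ha2-202, with the 60 nt exon, had one of 0.65 ± 0.30 (adjusted p = 0.231, limma). For P4ha2-201, with the 66 nt exon, it was 0.11 ± 0.17.

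The alternative forms of P4ha1 were listed in shares that differed between libraries of the same group. P4ha1-203 made up 76.5 to 87.5% of the P4ha1 FPKM in 11 libraries, 43.4% in Control replicate 5, and only 16.5% in AngII replicate 4, 14.9% in AngII+QDG replicate 1 and 13.97% in AngII+QDG replicate 3. In those 3 libraries P4ha1-201 reached 8.74, 8.07 and 6.87 FPKM, and in the other 12 it was 1.19 to 3.38 FPKM. The sum of both transcripts in those 3 libraries was 7.98 to 10.5 FPKM, within the range of the others. The transcripts also differ at their ends, at 4043 nt for P4ha1-201 and 2918 nt for P4ha1-203, and the share an isoform takes is an estimate of the authors' quantification, so whether the exon or the end moved the share was not tested. For P4ha2 the share of P4ha2-202 among the exon pair was 14.5 to 59.6%, with all 3 groups overlapping. Neither P4ha1 transcript was called in any comparison.

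**Figure D5:**
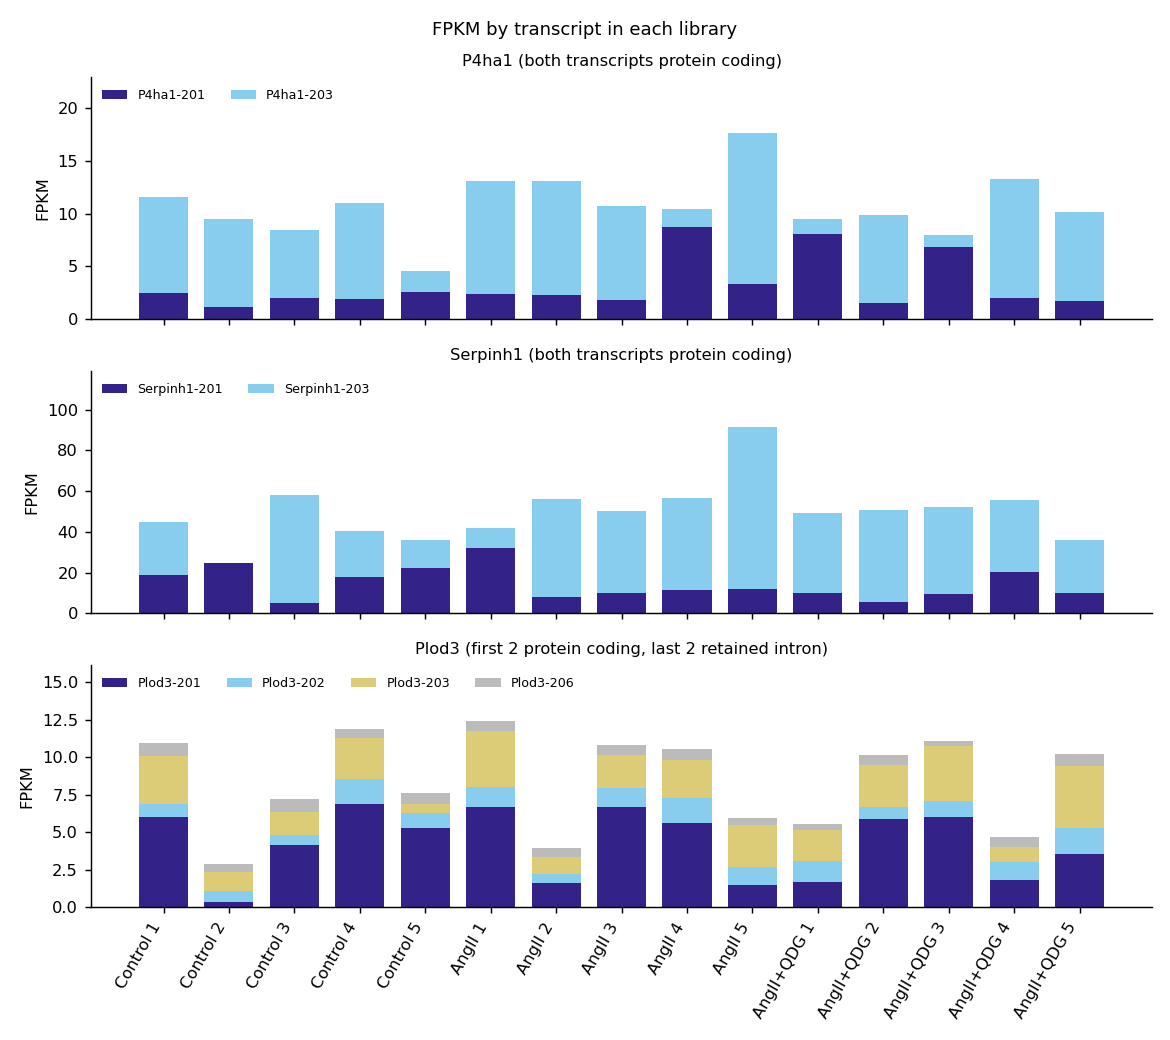
Stacked bars of FPKM (vertical axis, from 0) by transcript in each of the 15 libraries for P4ha1, Serpinh1 and Plod3. P4ha1-201 is the larger part in 4 libraries, Control replicate 5, AngII replicate 4 and AngII+QDG replicates 1 and 3, Serpinh1-203 is at 0 in Control replicate 2, and Plod3-201 is below 2 FPKM in 5 libraries spread over the groups.

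Serpinh1 transcripts also took shares that differed between libraries, while in Plod3 the gene sum was low together with its full-length coding transcript. Serpinh1-203 was 0% of Serpinh1-201 and Serpinh1-203 together in Control replicate 2, 23.6% in AngII replicate 1 and 37.5 to 91.5% in the other 13 libraries, while the sum of both was 24.7 to 91.5 FPKM. Serpinh1-207, a short coding transcript, was listed at 0 in every Control library, and its differences were not called (adjusted p = 0.0985 in AngII and 0.0689 in AngII+QDG, limma). Plod3-201, the full-length coding transcript, was below 2 FPKM in 5 libraries (Control replicate 2, AngII replicates 2 and 5 and AngII+QDG replicates 1 and 4, the highest at 1.85 FPKM) and at or above 3.57 FPKM in the other 10. The same 5 libraries were the lowest for the Plod3 gene sum. Retained-intron transcripts of Plod3 added 2.59 ± 1.13, 3.10 ± 0.946 and 3.29 ± 1.27 FPKM across Control, AngII and AngII+QDG to coding sums of 5.52 ± 2.81, 5.64 ± 2.92 and 5.03 ± 1.92 FPKM, so a large part of the Plod3 level was not from coding transcripts.

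The members were set beside other genes of the same pathway, and no list had a member called lower in any comparison or called at all between AngII+QDG and AngII, where the all-gene share was 0%. Of 14 genes that fold or modify collagen in the endoplasmic reticulum, 2 were higher in AngII than in Control: Fkbp9, a peptidyl-prolyl isomerase of that compartment, at 0.55 ± 0.17 (SE), and Colgalt2, a collagen galactosyltransferase, at 0.70 ± 0.13, with adjusted p-values of 0.0469 and 0.0123 (limma). Their list had a median of 0.30 beside 0.20 over all genes, of which 13.3% were called in that comparison and 19.4% between AngII+QDG and Control. P4hb, the beta subunit that the alpha subunits need, averaged 43.4 ± 10.5, 54.6 ± 1.86 and 52.5 ± 4.03 FPKM across Control, AngII and AngII+QDG and was not called (adjusted p = 0.105 in AngII, limma). Loxl3 was 1.66 ± 0.602, 1.56 ± 0.522 and 1.08 ± 0.140 FPKM and was not called, and Loxl4 and P4ha3 were not listed. Between AngII+QDG and Control 3 of the 14 were higher, Fkbp9, Colgalt2 and Colgalt1 (0.89 ± 0.27, adjusted p = 0.0319, limma). Leaving out Control replicates 3 and 5 left 0 of the 14 called in AngII and 1 in AngII+QDG.

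Of 9 genes that export procollagen from the endoplasmic reticulum, 2 were higher in AngII than in Control. Mia3, which loads procollagen into large carriers, went from 3.31 ± 1.07 to 6.58 ± 0.845 FPKM (0.84 ± 0.17, SE, adjusted p = 0.0147, limma), and Klhl12, an adaptor of the ubiquitin ligase that enlarges those carriers, from 2.13 ± 1.25 to 4.74 ± 0.519 FPKM (0.99 ± 0.25, adjusted p = 0.0269, limma). Both were also higher in AngII+QDG than in Control, at 0.68 ± 0.17 and 1.15 ± 0.25. Leaving out Control replicates 3 and 5 left 0 of the 9 export genes called in AngII, where limma voom called 3 with all libraries, and 1 in AngII+QDG. Of 15 genes for procollagen trimming and fibril assembly 12 were tested. In AngII 0 were called by limma, with 3 at an unadjusted p below 0.05 and 1 called by limma voom, and 1 gene, Lum, a fibril-binding proteoglycan, was higher in AngII+QDG than in Control, at 0.68 ± 0.18 (adjusted p = 0.0176, limma), and was not called without Control replicates 3 and 5.

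Of the 6 substrates of lysyl oxidases read here, Col5a2, a chain of the type V collagen that seeds fibrils, rose in AngII, from 2.34 ± 0.680 to 5.36 ± 1.93 FPKM (0.91 ± 0.21, SE, adjusted p = 0.0199, limma), was not called there without Control replicates 3 and 5, and was not called in AngII+QDG against Control (0.45 ± 0.21, adjusted p = 0.140). The fibrillar collagens Col1a1 (0.67 ± 0.30, adjusted p = 0.136, limma), Col1a2 (1.25 ± 0.79, adjusted p = 0.294) and Col3a1 (0.77 ± 0.79, adjusted p = 0.527) and the elastin gene Eln (0.49 ± 0.53, adjusted p = 0.550) were not called and had wide errors. The substrate list had a median of 0.72 in AngII against Control and -0.45 in AngII+QDG against AngII, beside 0.20 and -0.017 over all genes.

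Plod2, P4ha1 and P4ha2 are known targets of hypoxia-inducible factors, and Plod2, Lox and Serpinh1 respond to TGF-beta in many cells, so genes of both kinds were read as background. Of 12 hypoxia-inducible genes 2 were higher in AngII than in Control, the angiogenic factor Vegfa (1.06 ± 0.22, SE, adjusted p = 0.0148, limma) and the kinase Pdk1 (0.73 ± 0.15, adjusted p = 0.0141), and both also in AngII+QDG, at 0.90 ± 0.22 and 0.94 ± 0.15, beside 13.3% and 19.4% of all genes called in these comparisons. Without Control replicates 3 and 5 there was 1 called in AngII and there were 2 in AngII+QDG. Of 7 TGF-beta targets 5 were tested and 3 were higher in AngII than in Control: the matricellular gene Ccn2 (2.10 ± 0.35, adjusted p = 0.00778, limma), Postn (1.42 ± 0.39) and the inhibitory Smad7 (0.68 ± 0.19). Ccn2 and Smad7 were also higher in AngII+QDG than in Control, at 2.54 ± 0.35 and 0.59 ± 0.19. Without Control replicates 3 and 5 the TGF-beta counts were 0 in AngII, where 3 had an unadjusted p below 0.05 with all libraries in the fit and limma voom called 3, and 1 in AngII+QDG.

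Over the 15 libraries, 14 of the 36 pairs of members had a Pearson correlation above 0.5 in log2(FPKM + 1), and the range was -0.41 to 0.79. The genes outside the list whose levels followed the mean of the z-scored members most closely were Prcp (r = 0.91), Cap1 (r = 0.90), Vamp3 (r = 0.90), Slc7a5 (r = 0.90) and Col5a3 (r = 0.90), over the same 15 libraries, which differ in treatment and in short-transcript balance.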

How the data were processed

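Heart RNA was isolated with Trizol, cleared of rRNA and converted to libraries with NEB reagents, per the labels' protocols. The submitters' processing notes name GRCm38 and limma; aligner and quantifier are not stated in the labels used here. The authors deposited 1 table of transcript values per library, read here as FPKM: no header states the unit, and value times length summed to nearly the same total in every library. Transcripts were named from GENCODE M21 and summed per gene, leaving out 8634 assembled transcripts without a gene name. FPKM times length fell within 0.1 of whole steps for 96.9 to 97.2% of values, and 1 step was taken as 1 fragment.

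The filter (at least 0.5 FPKM, 5 or more libraries) kept 12262 genes. Differences in log2(FPKM + 1) came from limma 3.58.1 (R 4.3.3; trended, robust variance), as 1 fit of 3 group means to 15 libraries with 12 residual degrees of freedom. Benjamini-Hochberg adjustment ran over all genes, with calls at 0.05. Fold changes on this scale understate the change of low genes. Transcripts (28475) were tested likewise. Tested on simulated data for AngII against Control over 12262 genes, the fit found 66% of 100 genes with a log2 change of 1 and 90% of 100 with one of 2. It also called 6 unchanged genes. The simulated noise was independent between genes, without the transcript balance, and only genes with a mean log2(FPKM + 1) above 1 were changed. These shares therefore do not cover genes as low as Lox or the tilt of the Control libraries. Ratios were compared with exact permutation tests. Every member is named in every comparison, and of each other list up to 4 called genes with the smallest p. Values of P4hb, Loxl3, Acta2, Comp, Wt1, Col1a1, Col1a2, Col3a1 and Eln were added after they were seen. A gene of these lists is not reported here. The members, lists, model and alternatives were chosen with earlier results of these data known. The alternatives covered the pseudocount, the filter, 2 scalings, the groups fitted, a replicate block, shared transcripts, the transcript balance, Control replicates 3 and 5, recovered fragments and each library left out. Python 3.11.15 with numpy 2.4.6, pandas 2.3.3, matplotlib 3.10.9 and Biopython 1.88 made the tables and figures.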

Additional observations from a re-analysis of the deposited data

Results flagged for a closer look

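Among 27 groups of 5 libraries (9 genes in 3 groups), a library was set apart from the rest of its group by a gap wider than Dixon's critical value in 2, and chance gives about 1 in 20. Lox in AngII+QDG replicate 4 was 1.60 FPKM, and the other AngII+QDG libraries were 0.330 to 0.538 FPKM. Loxl2 in AngII replicate 5 was 6.70 FPKM, and the other AngII libraries were 2.80 to 3.47 FPKM.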

How the results depend on the processing

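The count of members called between AngII and Control was 2, and 0 after quantile normalization, after median scaling, in a fit of the 2 groups alone, with the transcript balance as covariate, and without Control replicates 3 and 5. Between AngII+QDG and Control it was 1, and 0 under the same settings except the fit of 2 groups alone, and the 1 transcript called there became 0 without Control replicates 3 and 5. With each library left out in turn, members called were 0 to 3 for AngII against Control (0 without AngII replicate 2, 4 or 5, and 1 without Control replicate 2 or 3), 0 to 0 for AngII+QDG against AngII and 1 to 2 for AngII+QDG against Control (2 without Control replicate 4), and isoenzyme ratios called were 0 to 0. Without Control replicate 4, P4ha2 had an adjusted p of 0.0177 in AngII and 0.0378 in AngII+QDG (limma). The AngII+QDG sum of P4ha2 includes transcripts not listed for Control or AngII.

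Signs changed among members that were not called. For AngII against Control, the balance covariate gave Loxl1 -0.026, Plod1 -0.13, P4ha1 -0.019 and P4ha2 -0.048, median scaling gave Plod1 -0.013 and Plod3 -0.18, and quantile normalization gave Plod3 -0.12. For AngII+QDG against AngII, the covariate gave Plod2 -0.031. For AngII+QDG against Control, median scaling gave Lox -0.15, Plod1 -0.22, Plod3 -0.22, P4ha1 -0.10 and Serpinh1 -0.010, quantile normalization gave Lox -0.25 and Plod3 -0.13, and a pseudocount of 0.1 and limma voom gave Lox -0.027 and -0.091. The covariate gave Plod1 -0.38, P4ha1 -0.39 and P4ha2 -0.22, and the fit without Control replicates 3 and 5 gave Plod1 -0.17 and P4ha1 -0.084. With each library left out, Plod3 ran from -0.16 to 0.33 in AngII against Control, Plod2 from -0.038 to 0.096 and Plod3 from -0.25 to 0.13 in AngII+QDG against AngII, and Lox from -0.16 to 0.080, Plod1 from -0.023 to 0.21, Plod3 from -0.20 to 0.24 and P4ha1 from -0.0059 to 0.29 in AngII+QDG against Control. The cause was not tested.

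Replicate numbers did not pair the libraries: deviations of same-numbered libraries correlated between -0.11 and 0.083 over 15 pairs, 0 of them over 0.1. With the number as a replicate block, members called were 2, 0 and 1, and genes called between AngII and Control were 516 against 1635. Genes called in that comparison were 97 without Control replicates 3 and 5, 0 with the covariate, 317 in the fit of 2 groups alone, 819 after quantile normalization and 292 to 2486 with each library left out. Between AngII+QDG and Control they were 1201, 0 and 1444 against 2377. Lox and Loxl2 rested on 84 to 660 and 20 to 2792 fragments per library. Of 270 values under these settings 234 kept their direction and side of the threshold.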
